A study of Mus musculus with 12 samples.

Results

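UPSMALL alveolar macrophages were set, gene by gene, against the midpoint of the other 2 groups, UPBIG and DOWN, here called the outer groups. The contrast is the log2 level in UPSMALL minus the mean of the log2 levels in UPBIG and DOWN, so a value of 0 puts UPSMALL on the straight line between the outer groups. All 12 libraries of the series enter it, 4 UPSMALL libraries against 4 UPBIG and 4 DOWN libraries, and 12625 genes were tested. All groups came from mice given bleomycin, which damages lung tissue and serves to model fibrosis, and were collected by bronchoalveolar lavage at day 14. Macrophages were passed through a size filter and sorted by side scatter, a measure of granularity, and by BODIPY, a dye for neutral lipid, into high, intermediate and low gates. Which filter fraction or gate each title stands for is not stated in the labels, nor the strain, sex or age of the mice, so the titles serve as group names. No label ties the replicates to separate mice, so each p-value measures the spread among these samples alone, and that spread may be technical.

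Macrophages balance cholesterol through opposed systems. When membrane sterol is low, the transcription factor SREBP2 (gene Srebf2) switches on the enzymes of cholesterol synthesis. When sterols accumulate, oxysterols activate the liver X receptors (LXR), which switch on exporters such as Abca1 and lipid enzymes such as Scd1. Alveolar macrophages clear surfactant lipid, and after lung injury monocytes recruited from blood add to the resident cells.

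Over all tested genes the UPSMALL libraries lay near the middle of the line. Projected on the line from the mean of DOWN (position 0) to the mean of UPBIG (position 1), they stood at 0.464 ± 0.0472 (SD, n = 4), between 0.415 and 0.522. The UPBIG and DOWN libraries also set the line, and their spread draws such a position toward the middle, so it is a description without a test. Gene by gene, the 2210 genes called between UPBIG and DOWN had a median position of 0.385, nearer DOWN. Library totals were 17109669 to 23282621 estimated counts. Lyz2, Ftl1 and Fth1 together took 15.5% to 23.8% of UPSMALL counts, against 26.5% to 29.1% in UPBIG and 19.5% to 22.02% in DOWN. UPSMALL replicate 4 gave the lowest of these shares and, at 0.453, the smallest quality weight in limma-voom. Transcripts of the mitochondrial genome took 3.03% ± 0.359 of UPSMALL counts (SD, n = 4), 4.62% ± 0.473 of UPBIG counts and 2.87% ± 0.277 of DOWN counts. Defining genes of the labelled cell type were present in UPSMALL, with the lectin Siglecf at 23.8 to 36.5 CPM (counts scaled to the library total) and the scavenger receptor Marco at 29.0 to 62.4 CPM.

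Few genes were called off the line. edgeR's quasi-likelihood test with Benjamini-Hochberg adjustment called 31 of the 12625 genes (0.246%) at adjusted p under 0.05, with UPSMALL above the midpoint for 20 (0.158%) and below it for 11 (0.0871%). DESeq2 called 60 above and 69 below, and a fit on the linear scale 9 above and 40 below, so the balance of directions turned with the tool and the scale. Without DOWN replicate 4 edgeR called 37 above and 23 below. At an unadjusted p under 0.05 there were 1032. By the pairwise tests of the same fit, 22 of the 31 genes (0.174% of all genes tested) were at the DOWN end: UPSMALL differed from UPBIG and no difference from DOWN was called. Only 4 (0.0317%) were at the UPBIG end. A further 2 were stepwise genes, with both steps called in one direction and unequal, 1 was a dip, lower in UPSMALL than in either outer group, and 2 fell in none of these classes. No gene was called a peak by this test, while DESeq2 called 2 and limma-voom 3. A missed call is not equality, so intervals were read as well: for 13 of the 22 DOWN-end genes the 95% interval of UPSMALL minus DOWN lay within a 1.5-fold difference either way, and for 0 of the 4 UPBIG-end genes did the interval of UPBIG minus UPSMALL.

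**Figure D1:**
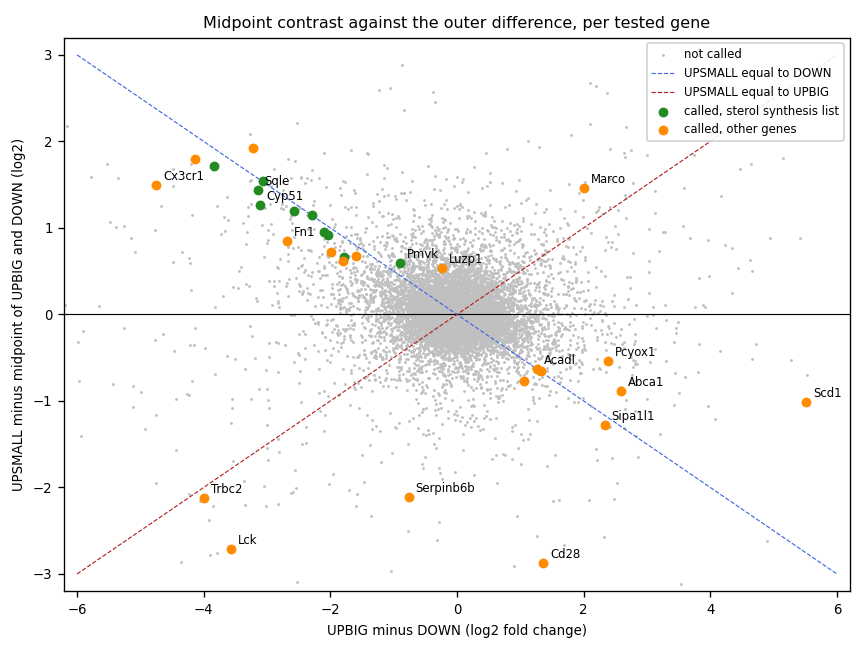
Each point is 1 tested gene, with the log2 difference between UPBIG and DOWN on the x axis and the log2 distance of UPSMALL from their midpoint on the y axis. Dashed lines mark UPSMALL equal to DOWN (blue) or to UPBIG (red), and the horizontal line marks the midpoint. The 10 called sterol genes (green) lie along the DOWN line, and 32 tested genes, 1 of them called, fall outside the axes.

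Cholesterol synthesis genes made up the largest called group. Of 25 genes on the sterol list (chiefly synthesis enzymes, with Srebf2, Insig1 and the sterol carrier Stard4), 24 were tested. Of these 10 were called above the midpoint, beside 0.158% of all genes, and none below. The median midpoint contrast over the 24 was 0.86 (SD 0.13 over UPSMALL libraries, n = 4), beside 0.01 over all tested genes. All 24 estimates were above 0, as were 51.8% of estimates over all genes. Between UPBIG and DOWN 22 members were called lower in UPBIG, where 8.48% of all genes were. Between UPBIG and UPSMALL 22 members were called lower in UPBIG, where 2.49% of all genes were, and between UPSMALL and DOWN none was called in either direction, where 0.594% and 0.547% of all genes were.

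The promoters of these genes are shown because the members moved together. RefSeq promoter windows on GRCm38.p6, from 250 bases before to 50 bases after a gene's start, were found for 17 of the 25 list members. CCAAT, the motif of the factor NF-Y that works beside SREBP2, was searched on both strands and found in 16 of the 17 genes (94.1%), beside 41.1% of 27025 genes in the table. By window the shares were 80% of 20 and 37.4% of 32851. One form of the sterol regulatory element, TCACNCCAC, was searched on both strands and found in 1 of the 17 (5.88%), Hmgcs1, beside 1.44% of genes in the table. The motifs do not overlap. The 250 bases before the start are printed 5′ to 3′ on the gene's strand, with both motifs, on either strand, in capitals. They are chr5:4104698-4104947 for Cyp51 (minus strand), chr8:64733579-64733828 for Msmo1 (minus), chr9:42264301-42264550 for Sc5d (minus) and chr13:119690101-119690350 for Hmgcs1 (plus).
Cyp51: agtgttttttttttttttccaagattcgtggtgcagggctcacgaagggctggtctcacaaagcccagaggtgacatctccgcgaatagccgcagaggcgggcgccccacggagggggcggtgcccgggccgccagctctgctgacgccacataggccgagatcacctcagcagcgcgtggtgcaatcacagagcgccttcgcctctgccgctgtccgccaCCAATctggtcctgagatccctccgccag
Msmo1: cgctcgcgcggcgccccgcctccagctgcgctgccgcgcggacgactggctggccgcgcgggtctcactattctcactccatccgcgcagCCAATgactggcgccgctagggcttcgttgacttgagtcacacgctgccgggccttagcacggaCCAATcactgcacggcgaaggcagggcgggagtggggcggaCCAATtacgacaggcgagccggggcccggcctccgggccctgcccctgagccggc
Sc5d: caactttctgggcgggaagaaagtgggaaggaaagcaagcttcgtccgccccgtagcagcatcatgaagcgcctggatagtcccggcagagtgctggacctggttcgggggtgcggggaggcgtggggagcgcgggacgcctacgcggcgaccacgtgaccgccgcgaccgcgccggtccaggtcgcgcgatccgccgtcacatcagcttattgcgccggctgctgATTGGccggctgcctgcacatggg
Hmgcs1: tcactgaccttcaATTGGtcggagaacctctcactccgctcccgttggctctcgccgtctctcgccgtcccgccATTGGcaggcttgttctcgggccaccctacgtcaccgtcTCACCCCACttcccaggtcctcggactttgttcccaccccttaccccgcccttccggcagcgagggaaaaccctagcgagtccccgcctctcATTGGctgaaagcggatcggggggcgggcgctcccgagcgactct
Msmo1 and Hmgcs1 each hold 3 copies of CCAAT in the printed stretch, and Cyp51 and Sc5d 1 each. A match is a string of letters and not a measured binding site.

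The regulator stood with the enzymes. Srebf2, which encodes SREBP2, was at 8.79, 8.07, 10.9 and 8.80 CPM in the 4 UPBIG libraries, at 32.1, 23.9, 26.6 and 25.6 in UPSMALL and at 32.1, 27.4, 34.1 and 32.9 in DOWN. UPSMALL did not overlap UPBIG and did overlap DOWN, and the midpoint contrast was 0.67 ± 0.13 (SE, adjusted p = 0.021). The Srebf2 call ended without UPBIG replicate 2, UPSMALL replicate 1 or 3, or DOWN replicate 2, with values of 0.58 to 0.68 and adjusted p of 0.0504 to 0.121.

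Enzymes that make squalene and its epoxide lay at the DOWN end. Fdft1 (GRCm38 chr14:63145150-63179578), squalene synthase, was at 15.2, 13.03, 15.8 and 11.7 CPM in UPBIG, 76.2, 67.1, 64.8 and 64.9 in UPSMALL and 79.2, 62.4, 74.7 and 55.4 in DOWN. UPSMALL was above every UPBIG library and within the DOWN range, with a midpoint contrast of 1.15 ± 0.12 (SE, adjusted p = 6.31e-05) and a log2 difference from DOWN of 0.01 (95% interval -0.28 to 0.29). Ctsb lies on the opposite strand over part of Fdft1, and no source used here states whether counting used strand, so reads of the pair cannot be told apart. Sqle, squalene epoxidase, was at 3.30, 5.38, 10.5 and 5.93 CPM in UPBIG, 55.6, 42.7, 53.1 and 51.7 in UPSMALL and 61.4, 48.3, 65.9 and 47.6 in DOWN, a midpoint contrast of 1.44 ± 0.20 (adjusted p = 0.00251). UPSMALL again overlapped DOWN and not UPBIG. Lss, the cyclase that closes the sterol ring, was not called (0.79 ± 0.24, adjusted p = 0.256). Pmvk, a kinase of the mevalonate pathway that feeds squalene synthesis, was at 42.8, 31.0, 30.8 and 30.7 CPM in UPBIG, 75.2, 68.5, 70.1 and 65.8 in UPSMALL and 69.4, 65.9, 61.1 and 56.1 in DOWN. Its contrast was smaller, 0.60 ± 0.11 (adjusted p = 0.0145), and was not called without UPSMALL replicate 1 or 3 (0.56 and 0.60, adjusted p = 0.0774 and 0.0627).

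The later enzymes, which turn lanosterol into cholesterol, had the same arrangement. Cyp51, lanosterol demethylase, was at 5.36, 10.3, 16.9 and 11.3 CPM in UPBIG, 77.9, 78.7, 73.7 and 79.6 in UPSMALL and 102, 82.1, 104 and 90.9 in DOWN. Here the UPSMALL libraries were all a little under the DOWN libraries and far above UPBIG, with a contrast of 1.26 ± 0.18 (SE, adjusted p = 0.00309) and a log2 difference from DOWN of -0.29 (95% interval -0.74 to 0.15). Msmo1, a methylsterol oxidase, and Sc5d, a desaturase, had mean levels of 34.9 ± 3.39 and 10.8 ± 1.37 CPM in UPBIG (SD, n = 4), 133 ± 17.9 and 43.1 ± 6.92 in UPSMALL and 143 ± 40.4 and 46.1 ± 10.6 in DOWN. Their contrasts were 0.92 ± 0.14 and 0.95 ± 0.15 (SE, adjusted p = 0.00309 for both). Stard4, a carrier that moves sterol between membranes, was at 4.41 ± 1.38, 24.7 ± 1.61 and 26.4 ± 6.30 CPM (SD, n = 4), a contrast of 1.19 ± 0.18 (adjusted p = 0.00251).

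**Figure D2:**
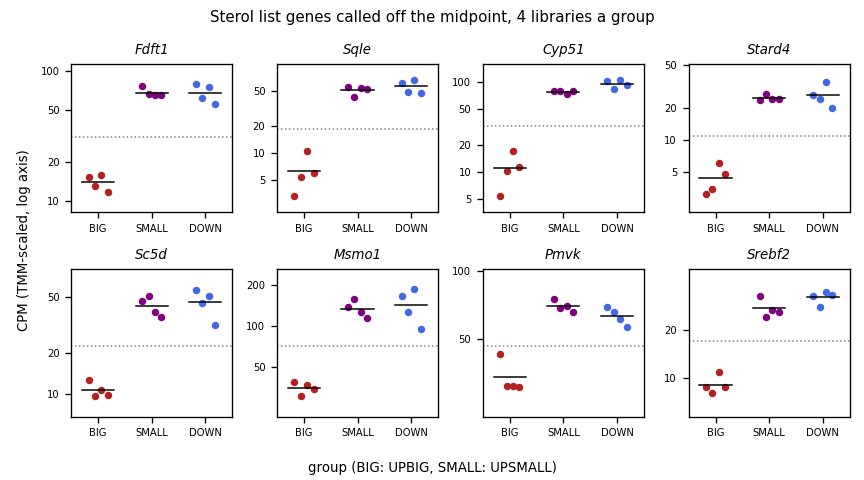
CPM on a log axis for 8 of the 10 sterol list genes called off the midpoint, with 1 point per library, a bar at each group mean and a dotted line at the geometric midpoint of the UPBIG and DOWN means. In each panel all 4 UPSMALL libraries are above the dotted line, and all but those of Cyp51 overlap the DOWN libraries.

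The other 14 tested members did not pass the test. Their estimates ran from 0.18 for the sterol isomerase Ebp to 1.11 for Fdps, which makes farnesyl diphosphate. Hmgcs1, an early synthase of the mevalonate pathway, was at 115 ± 12.7 CPM in UPSMALL (SD, n = 4), against 50.8 ± 9.31 in UPBIG and 126 ± 18.6 in DOWN, with a contrast of 0.52 ± 0.12 (SE, adjusted p = 0.0753). On the line from DOWN (0) to UPBIG (1), the 22 members that differed between the outer groups had a median position of 0.0465 and none was above 0.25, while the 2210 genes (17.5%) called between the outer groups had a median of 0.385. By library, the projection of the list's log2 levels on that line put UPSMALL between -0.0186 and 0.096. Without the list, the position of the UPSMALL libraries over all other tested genes was 0.470 ± 0.0483.

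Dhcr7, the last enzyme of one branch, was the exception in shape. It did not differ between the outer groups, at 13.3 ± 1.26 CPM in UPBIG and 13.9 ± 0.554 in DOWN (SD, n = 4, adjusted p = 0.826), and stood at 18.3 ± 1.88 in UPSMALL. All 4 UPSMALL libraries were above the other 8, as for 23 tested genes (0.182%), but the contrast of 0.42 ± 0.13 (SE) was not called (adjusted p = 0.282).

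The desaturase gene Scd1 and the exporter gene Abca1 left the line in the opposite direction, with UPSMALL below the midpoint. Scd1, which puts a double bond into saturated fatty acids, was at 147, 123, 135 and 121 CPM in UPBIG, 8.87, 7.90, 10.1 and 11.8 in UPSMALL and 2.08, 3.37, 3.30 and 2.78 in DOWN. The 3 groups did not overlap. Both steps were called, 3.77 ± 0.15 (SE) on the log2 scale from UPSMALL to UPBIG and 1.75 from DOWN to UPSMALL (95% interval 1.40 to 2.10), and the midpoint contrast was -1.01 ± 0.14 (adjusted p = 0.00251). Abca1, the cholesterol exporter, was at 380.1, 310.1, 320.5 and 325 CPM in UPBIG, 73.7, 80.6, 74.9 and 66.7 in UPSMALL and 42.9, 69.9, 39.0 and 69.8 in DOWN. UPSMALL overlapped DOWN only through UPSMALL replicate 4, at 66.7, and the contrast was -0.88 ± 0.14 (adjusted p = 0.00674). The log2 difference of Abca1 from DOWN was 0.42 (95% interval 0.08 to 0.76, adjusted p = 0.256). That interval leaves 0 out and passes 1.5-fold, although the adjusted p missed the threshold. Of 17 tested LXR targets these 2 were called below the midpoint (0.0871% of all genes were) and none above, and 15 estimates were below 0, with a median of -0.35 (SD 0.19 over UPSMALL libraries, n = 4). Abcg1, the partner exporter, was at 796 ± 68.8, 281 ± 39.8 and 215 ± 40.9 CPM (SD, n = 4) and missed the threshold with a contrast of -0.56 ± 0.12 (adjusted p = 0.0536). Of 15 tested fatty acid synthesis genes, Scd1 was the one called, while 11 estimates were above 0 and the median was 0.38. Apoe, a lipoprotein component and known LXR target, had a contrast of -0.05 ± 0.19. Between the outer groups 12 of the 17 were called higher in UPBIG, where 9.03% of all genes were, and 9 were called higher in UPBIG than in UPSMALL, where 3.22% were. The UPSMALL libraries stood at 0.261 to 0.323 on the line for this list.

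Of the 27 tested genes for burning fatty acid, 1 was called below the midpoint, where 0.0871% of all genes were. Acadl, the long-chain acyl-CoA dehydrogenase of mitochondria, was at 164, 168, 139.9 and 153 CPM in UPBIG, 58.9, 70.1, 60.2 and 71.5 in UPSMALL and 61.0, 67.3, 63.9 and 67.4 in DOWN. UPSMALL spanned the DOWN range and lay under every UPBIG library, with a log2 difference from DOWN of 0.01 (95% interval -0.22 to 0.23) and a midpoint contrast of -0.63 ± 0.09 (SE, adjusted p = 0.00309). The other 26 tested genes of fatty acid oxidation were not called, and the list's median contrast was -0.16 (SD 0.09, n = 4). Pcyox1, an oxidase of prenylcysteine, was the second stepwise gene, at 219, 193, 204 and 185 CPM in UPBIG, 69.6, 52.1, 58.1 and 60.6 in UPSMALL and 33.0, 37.0, 42.1 and 41.0 in DOWN. The 3 groups did not overlap, and the contrast was -0.54 ± 0.10 (adjusted p = 0.022). That call ended without UPSMALL replicate 2, 3 or 4 or DOWN replicate 3 (-0.48 to -0.55, adjusted p = 0.0566 to 0.112) and with library totals alone (-0.42, adjusted p = 0.130).

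None of the 23 tested lipid droplet genes and none of the 58 tested lysosome genes was called by edgeR in either direction. Over all genes 0.246% were called, so a list of either size can lack a call without differing from other genes. The median contrasts of the lists were -0.06 and -0.11. Plin2, a coat protein of droplets, was at 587, 676, 516 and 394 CPM in UPSMALL, between 1002 and 1373 in UPBIG and between 381 and 413 in DOWN, with a contrast of -0.33 ± 0.12 (SE, adjusted p = 0.434). The 13 mitochondrially encoded genes also had no call, with 12 estimates below 0 and a median of -0.49 (SD 0.17 over UPSMALL libraries, n = 4). mt-Atp6, a subunit of ATP synthase, came nearest, at 4990 ± 458 CPM in UPSMALL (SD, n = 4), against 9735 ± 572 in UPBIG and 5016 ± 669 in DOWN, with a contrast of -0.49 ± 0.11 (adjusted p = 0.0684). At an unadjusted p under 0.05, 483 of all tested genes were below the midpoint.

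Further genes at the DOWN end and low in UPSMALL encode signalling proteins. Gngt2, a G protein gamma subunit, was at 1676, 1759, 1748 and 2182 CPM in UPBIG, 746, 664, 873 and 667 in UPSMALL and 718, 705, 669 and 840.5 in DOWN, a contrast of -0.66 ± 0.11 (SE, adjusted p = 0.00674). UPSMALL and DOWN covered the same range. Sipa1l1, which stimulates the GTPase activity of Rap proteins, was at 5.37 ± 1.41 CPM in UPSMALL (SD, n = 4), against 29.3 ± 6.25 in UPBIG and 5.82 ± 0.321 in DOWN, a contrast of -1.28 ± 0.18 (adjusted p = 0.00275). Myo9a, an unconventional myosin, was at 38.3 ± 3.35, 15.6 ± 2.52 and 18.4 ± 1.61 CPM, a contrast of -0.77 ± 0.13 (adjusted p = 0.00793), not called without UPSMALL replicate 1 (-0.70, adjusted p = 0.0563).

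Some genes of macrophages derived from monocytes were in the DOWN-end class as well, but among Fn1, Cx3cr1 and Tgfbi only Tgfbi had an interval within 1.5-fold of DOWN. Fn1, fibronectin of the extracellular matrix, was at 235, 299, 327 and 268 CPM in UPBIG, 945, 1344, 1268 and 1586 in UPSMALL and 1818, 1906, 1743 and 1785 in DOWN. The 3 groups did not overlap, UPSMALL replicate 1 was the lowest of its group, and the midpoint contrast was 0.85 ± 0.12 (SE, adjusted p = 0.00251). The log2 difference from DOWN was -0.50 (95% interval -0.79 to -0.21, adjusted p = 0.0921), so the interval leaves 0 out although the adjusted p missed the threshold. Cx3cr1, the fractalkine receptor of monocytes and their progeny, was at 0.935, 0.538, 1.11 and 2.18 CPM in UPBIG, 21.4, 12.0, 22.1 and 13.6 in UPSMALL and 37.0, 28.5, 31.2 and 30.6 in DOWN. Again no group overlapped another, with a contrast of 1.49 ± 0.24 (adjusted p = 0.00309) and a log2 difference from DOWN of -0.88 (95% interval -1.40 to -0.36, adjusted p = 0.0991). Tgfbi, a matrix protein induced by TGF-beta, was at 192, 182, 205 and 162 CPM in UPBIG, 458, 453, 484 and 667 in UPSMALL and 602, 544, 502 and 595 in DOWN, a contrast of 0.68 ± 0.11 (adjusted p = 0.00474). UPSMALL replicate 4 was the highest of all libraries, and the other 3 UPSMALL libraries were below all DOWN libraries.

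These 3 were the called members of 26 tested monocyte-derived macrophage genes (0.158% of all genes were called above), whose median contrast was 0.18 (SD 0.20, n = 4). Ccr2, the chemokine receptor that brings monocytes into tissue, was at 36.1, 45.6, 78.7 and 97.1 CPM in UPSMALL, between 7.83 and 14.2 in UPBIG and between 169 and 202 in DOWN. It lay between the outer groups without overlap, and its contrast of 0.60 ± 0.24 (SE) was not called (adjusted p = 0.523). H2-Eb1, an MHC class II chain that presents antigen, was likewise between, at 194, 389.8, 443 and 279.7 CPM in UPSMALL, 58.8 to 82.2 in UPBIG and 608 to 940.4 in DOWN, with a contrast of 0.50 ± 0.19 (adjusted p = 0.438). With no low-count filter edgeR called it above the midpoint (0.51, adjusted p = 0.00201). With the filter, none of 14 tested MHC class II genes was called in either direction, where 0.246% of all genes were. The list put UPSMALL at 0.43 ± 0.13 on the line (SD, n = 4). In these bulk libraries, fewer cells of a type and less RNA per cell cannot be told apart. Dendritic cell markers summed to 179 to 269 CPM in UPSMALL, 198 to 302 in UPBIG and 216 to 266 in DOWN, with 2 of 16 at 0 counts in UPSMALL and none at 0 in the other groups. Most of that sum was Bst2 and Irf8, at mean levels of 129 and 71.5 CPM in UPSMALL. Other markers were higher in DOWN: Ccr7 was at 2.80 ± 2.75 CPM in UPSMALL (SD, n = 4), against 0.949 ± 0.744 in UPBIG and 30.2 ± 16.0 in DOWN, and Cd209a at 1.11 ± 0.926, 0.249 ± 0.498 and 7.21 ± 5.51 CPM in the same order. Of 13 tested markers 8 were called lower in UPBIG than in DOWN, where 8.48% of all genes were. None was called off the midpoint, where 0.246% of all genes were. The part of these cells in the monocyte and MHC class II values was not tested.

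Dok2, Pilra and Apcdd1 were also called high at the DOWN end. Dok2, an adaptor that restrains kinase signalling in myeloid cells, was at 30.7 ± 5.15 CPM in UPSMALL (SD, n = 4), against 9.32 ± 1.31 in UPBIG and 37.0 ± 5.15 in DOWN, a contrast of 0.73 ± 0.14 (SE, adjusted p = 0.0167) that was not called without UPSMALL replicate 1 or 3 (0.73 and 0.61, adjusted p = 0.0598 and 0.123). Pilra, an inhibitory receptor of myeloid cells, was at 37.6 ± 6.99, 108 ± 20.9 and 131 ± 9.96 CPM, a contrast of 0.62 ± 0.12 (adjusted p = 0.0299) not called without UPBIG replicate 2, UPSMALL replicate 2 or 3, or DOWN replicate 2 or 3 (0.49 to 0.63, adjusted p = 0.0504 to 0.170). Apcdd1, an inhibitor of Wnt signalling, was called only without UPBIG replicate 1 or DOWN replicate 4 among the 12 fits that left out a library, at 0.328 ± 0.324, 4.81 ± 2.18 and 5.84 ± 1.74 CPM.

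At the UPBIG end the named gene high in UPSMALL was Marco, a scavenger receptor of resident alveolar macrophages that binds particles and bacteria. It was at 22.1, 38.8, 44.0 and 24.1 CPM in UPBIG, 29.0, 40.3, 44.7 and 62.4 in UPSMALL and 4.07, 11.4, 8.42 and 8.11 in DOWN. UPSMALL overlapped UPBIG and was above every DOWN library, with a contrast of 1.46 ± 0.27 (SE, adjusted p = 0.0333). The call was lost without UPBIG replicate 1 or 4, UPSMALL replicate 2, 3 or 4, or DOWN replicate 3 or 4 (adjusted p = 0.057 to 0.116). Marco was the one called member of 24 tested resident alveolar macrophage genes, where 0.246% of all genes were called. The median contrast of the list was 0.11 (SD 0.11, n = 4). Car4, a carbonic anhydrase of these cells, went with DOWN rather than UPBIG, at 127 ± 45.8 CPM in UPSMALL (SD, n = 4), against 17.9 ± 11.5 in UPBIG and 88.1 ± 21.3 in DOWN, and its contrast of 1.67 ± 0.35 was not called (adjusted p = 0.109). Cdh1, E-cadherin, was at 1.81 ± 0.196, 9.64 ± 5.36 and 8.83 ± 3.48 CPM, also not called (1.27 ± 0.29, adjusted p = 0.0684).

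The model gene Gm26759 (GRCm38 chr8:126566970-126590988) is annotated as antisense and had 0 counts in the 4 DOWN libraries. It overlaps Irf2bp2 on the other strand, so with strand use unknown their reads cannot be told apart. It had 497 counts over the UPBIG libraries, at least 218-fold higher than a floor of 3 counts over the DOWN group, and 633 over the UPSMALL libraries, at least 202-fold higher. Its UPBIG libraries were at 7.35, 4.54, 12.8 and 5.73 CPM and its UPSMALL libraries at 6.85, 3.95, 2.67 and 13.4, which overlap. The midpoint test called it (adjusted p = 0.00309), and limma-voom did not (adjusted p = 0.0528).

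T cell transcripts were the genes at the UPBIG end that were low in UPSMALL. Trbc2, a constant chain of the T cell receptor, was at 0.312, 0.658, 1.46 and 0.682 CPM in UPBIG, 0.691, 0.700, 1.07 and 0.441 in UPSMALL and 14.9, 6.79, 15.9 and 12.8 in DOWN, a contrast of -2.12 ± 0.37 (SE, adjusted p = 0.0145). Lck, a kinase of T cell receptor signalling, was at 0.498, 0.658, 0.352 and 0.7501 CPM in UPBIG, 0.319, 0.550, 0.267 and 0.0734 in UPSMALL and 12.7, 2.94, 7.86 and 3.49 in DOWN, a contrast of -2.71 ± 0.52 (adjusted p = 0.0362). For both genes UPSMALL overlapped UPBIG and no library of either reached the lowest DOWN library. Of 16 tested T and NK cell markers these 2 were called below (0.0871% of all genes were), all 16 estimates were below 0, and the median was -1.62 (SD 0.38, n = 4). The 20 markers summed to 69.5 to 122 CPM in UPSMALL, 117 to 204 in UPBIG and 124 to 252 in DOWN, with 2 at 0 counts in UPSMALL, 1 in UPBIG and none in DOWN. Much of that sum was Cd2 and Il7r, at mean levels of 57.6 and 30.8 CPM in UPSMALL, while the receptor component Cd3d was at 0.658 ± 0.495 CPM in UPSMALL and 11.5 ± 5.19 in DOWN (SD, n = 4). The Trbc2 call was lost without UPSMALL replicate 1, 2 or 4 (-1.93 to -2.10, adjusted p = 0.0527 to 0.0650). The Lck call was lost without UPBIG replicate 2 or 4, UPSMALL replicate 1, 3 or 4, or DOWN replicate 1 or 3 (-2.35 to -2.74, adjusted p = 0.0695 to 0.123). limma-voom called neither (adjusted p = 0.298 and 0.377).

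By mean CPM, UPSMALL lay above both outer groups for 3311 tested genes and below both for 2942, but few of these were separated library by library. Luzp1, a leucine zipper protein of the actin cytoskeleton and the centrosome, was at 51.7, 45.4, 45.1 and 39.96 CPM in UPBIG, 76.3, 75.6, 68.5 and 65.7 in UPSMALL and 54.8, 51.6, 59.2 and 48.2 in DOWN. All 4 UPSMALL libraries were above the other 8, and the contrast was 0.54 ± 0.10 (SE, adjusted p = 0.0167). The difference from DOWN, 0.42 on the log2 scale (95% interval 0.18 to 0.66), missed the threshold (adjusted p = 0.0881), so it was not called a peak. The midpoint call ended without UPSMALL replicate 1, 2 or 3 (0.51 to 0.56, adjusted p = 0.0529 to 0.0828). Luzp1 was the one called gene among the 23 (0.182%) whose UPSMALL libraries were all above the rest.

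Serpinb6b, an inhibitor of serine proteases, was the one dip. It was at 2.80, 4.12, 4.92 and 3.14 CPM in UPBIG, 1.38, 0.849, 1.87 and 0.441 in UPSMALL and 4.11, 6.02, 11.3 and 4.05 in DOWN. All 4 UPSMALL libraries were below the other 8, as for 27 tested genes (0.214%), with a contrast of -2.11 ± 0.38 (SE, adjusted p = 0.022). The level is low, resting on 97 counts over the UPSMALL libraries, and the call ended without UPSMALL replicate 1, 2 or 4 or DOWN replicate 3 (-1.83 to -2.21, adjusted p = 0.0542 to 0.0901), in limma-voom (adjusted p = 0.0555) and on the linear scale (adjusted p = 0.146). Cd28, a costimulatory receptor known from T cells, was at 4.17, 4.30, 5.39 and 5.73 CPM in UPBIG, 0.266, 0.650, 0.400 and 0.331 in UPSMALL and 3.51, 0.433, 2.89 and 0.754 in DOWN. UPSMALL was below every UPBIG library, while DOWN replicates 2 and 4 were far lower than the other DOWN libraries, replicate 2 lying within the UPSMALL range. Its contrast of -2.88 ± 0.50 was called (adjusted p = 0.021) and ended without UPBIG replicate 4 or UPSMALL replicate 1, 3 or 4 (-2.72 to -2.87, adjusted p = 0.0522 to 0.0941), and in limma-voom (-2.52, adjusted p = 0.172).

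Cell cycle genes leaned above the midpoint without a call in the edgeR fit that gave the 31 called genes. Of 40 tested members none passed its test, where 0.246% of all genes did. Estimates were above 0 for 39 (51.8% were over all genes), and the median was 0.50 (SD 0.17 over UPSMALL libraries, n = 4). The thymidine kinase Tk1 was at 13.1 ± 2.03 CPM in UPSMALL (SD, n = 4), against 7.11 ± 2.91 in UPBIG and 6.42 ± 3.04 in DOWN, with a contrast of 0.95 ± 0.26 (SE, adjusted p = 0.164). limma-voom called Tk1 a peak (1.13, adjusted p = 0.0137), as did edgeR with no low-count filter (adjusted p = 0.00109). With no filter edgeR also called the list members Cenpf (1.06, adjusted p = 0.0032) and Stmn1 (0.55, adjusted p = 0.000277) as peaks. Without DOWN replicate 4, edgeR called Birc5, Cenpf and Cdca8, genes of chromosome segregation, as peaks (adjusted p = 0.00232 to 0.0216). The helicase subunit Mcm6, of DNA replication, was at 10.7 ± 2.87, 16.6 ± 1.72 and 11.2 ± 1.66 CPM, with a contrast of 0.60 ± 0.17 (adjusted p = 0.200). The proliferation marker Mki67 was at 24.6, 24.2, 30.7 and 38.6 CPM in UPSMALL and overlapped both UPBIG, at 16.0 to 29.1, and DOWN, at 16.1 to 43.3.

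**Figure D3:**
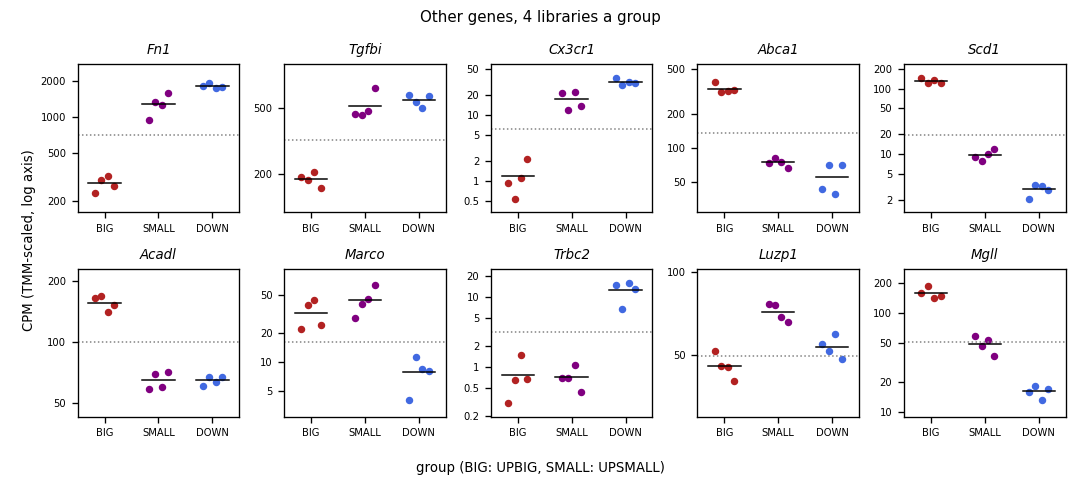
CPM on a log axis for 10 further genes, drawn as for the sterol genes, with 1 point per library, a bar at each group mean and a dotted line at the geometric midpoint. In UPSMALL, Acadl lies near DOWN, and Abca1 is above the DOWN mean but closer to DOWN than to UPBIG. Marco and Trbc2 lie near UPBIG, Luzp1 above both outer groups, and Mgll at the dotted line.

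Some genes stayed on or close to the line although the outer groups differed widely. Of 360 genes called between UPBIG and DOWN with at least a 4-fold difference, 20 were called off the midpoint and 7 had a 95% interval of the midpoint contrast within 1.5-fold either way. Those 7 were Mgll, Tmem176a, Colec12, Lepr, Sdc3, Ear1 and Slpi, and the rest could be placed neither on nor off the line. Mgll, the lipase that splits monoglycerides, was at 162, 189.8, 143 and 149 CPM in UPBIG, 58.9, 46.1, 53.3 and 36.9 in UPSMALL and 16.1, 18.3, 13.4 and 17.2 in DOWN. No group overlapped another, the steps were 1.72 ± 0.14 and 1.59 on the log2 scale, and the contrast was -0.07 ± 0.13 (SE). Ear1, a ribonuclease of the eosinophil-associated family and a resident macrophage marker, was at 103, 95.9, 104 and 90.01 CPM in UPBIG, 62.7, 43.6, 53.8 and 45.6 in UPSMALL and 21.0, 25.3, 28.8 and 16.4 in DOWN, with a contrast of 0.12 ± 0.13. Colec12, a collectin that acts as a scavenger receptor, was at 52.0 ± 10.3, 23.5 ± 3.10 and 9.29 ± 2.40 CPM (SD, n = 4), and Sdc3, a heparan sulphate proteoglycan, at 219.6 ± 37.3, 84.9 ± 8.21 and 47.3 ± 3.87 CPM. The Sdc3 contrast was -0.26 ± 0.11 (SE, adjusted p = 0.523), and its 95% interval of -0.49 to -0.04 left 0 out. Tmem176a, a membrane protein of myeloid cells, ran the other way, at 5.32 ± 2.64 CPM in UPBIG, 14.98 ± 1.21 in UPSMALL and 37.4 ± 4.04 in DOWN. The resident marker Siglecf was also near the line, at 27.6, 27.6, 36.5 and 23.8 CPM in UPSMALL, 39.2 to 44.9 in UPBIG and 15.04 to 23.7 in DOWN, with a contrast of 0.05 ± 0.14.

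The scale decides where the midpoint is. On the log scale it is the geometric mean of the outer groups, which lies under their arithmetic mean. All 20 genes called above the log midpoint had an UPSMALL mean above the arithmetic midpoint too, and all 11 called below were also below it. For some the distance was small: Cx3cr1 in UPSMALL averaged 17.3 CPM, against an arithmetic midpoint of 16.5 and a geometric one of 6.16. Tested on the linear scale, 15 of the 31 genes kept their call. Of the 10 sterol genes 5 did, among them Fdft1, Sqle, Cyp51 and Pmvk, and Stard4, Sc5d, Msmo1 and Srebf2 lost it (adjusted p = 0.0745 to 0.243). Fn1, Cx3cr1, Tgfbi, Marco, Dok2, Pilra, Apcdd1, Gm26759, Lck and Serpinb6b also lost it (adjusted p = 0.0948 to 0.947). Mgll, on the line by the log scale, was called below the arithmetic midpoint (adjusted p = 0.00918). Ccr2 and H2-Eb1, above the log midpoint without a call, had UPSMALL means of 64.4 and 327 CPM, below their arithmetic midpoints of 97.0 and 416.

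**Figure D4:**
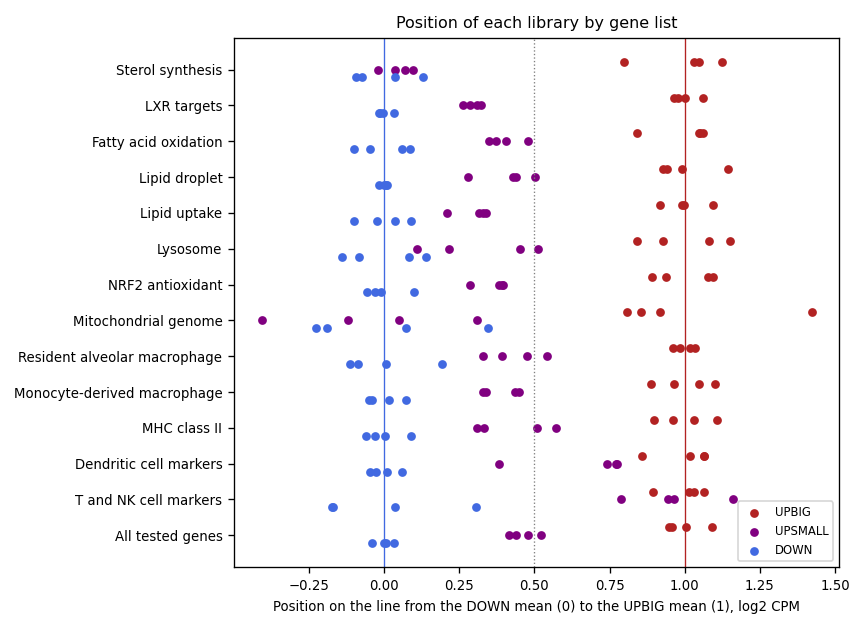
Position of each library on the line from the DOWN mean (0) to the UPBIG mean (1), from log2 CPM over the genes of each list, with 1 point per library. The UPSMALL libraries stand at -0.0186 to 0.096 for sterol synthesis, at 0.261 to 0.323 for LXR targets, at 0.788 to 1.16 for T and NK cell markers and at 0.415 to 0.522 over all tested genes.

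By list, the UPSMALL libraries stood at different places. The sterol list was at 0.0457 ± 0.0492 (SD, n = 4) and the mitochondrially encoded genes at -0.0422 ± 0.301, a spread that covers the sterol value. Genes of scar-associated macrophages were at 0.171 ± 0.135, fatty acid synthesis genes at 0.251 ± 0.0907, LXR targets at 0.294 ± 0.0272 and lipid uptake genes at 0.298 ± 0.0597. Fatty acid oxidation genes were at 0.401 ± 0.0561, lipid droplet genes at 0.412 ± 0.0942 and resident macrophage genes at 0.435 ± 0.0925. These last 3 and MHC class II do not differ beyond their spread, nor do the 4 lists before them from each other. T and NK cell markers were at 0.964 ± 0.153. Each position weights a gene by the square of its log2 difference between UPBIG and DOWN, so a few wide genes can set it. In the fatty acid synthesis list Scd1 had a difference of 5.52, beside a list median of -0.08. There 11 of 15 midpoint estimates were above 0. Scd1 is on the LXR target list too, where the median difference was 0.98. Lists share members, and the positions use the same libraries that set the ends of the line, so they are a description without a test.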

How the data were processed

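Smart-seq libraries of sorted alveolar macrophages, 4 each of UPBIG, UPSMALL and DOWN, were analysed from the authors' deposited table of RSEM expected counts (estimated reads per gene), made with STAR, RSEM and the mm10 genome per the submitters' processing notes. For versions, annotation and strand use, the sources used here give nothing. The table holds 26855 genes, 13.8% of values are not whole, and symbols for 26775 identifiers came from a reference table of mouse gene names.

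Counts were rounded, filtered with filterByExpr (12625 genes left) and fitted in one model without a block in R 4.3.3, by the robust quasi-likelihood F test of edgeR 4.0.16 after TMM scaling. Each adjusted p is edgeR's, with Benjamini-Hochberg adjustment over all tested genes and a call under 0.05, unless another tool is named. SEs and 95% intervals come from the same fit. CPM values use TMM-scaled totals. Floors cover counting error only, since amplified reads that carry no molecular identifier are not separate molecules. Library totals of 17109669 to 23282621 set the precision. The procedure was tested on simulated data.

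Classes followed the 3 pairwise tests. A gene on the line had an outer difference of at least 4-fold and a midpoint interval within 1.5-fold. Genes were named by rule: the 6 largest called at each end in each direction with a mean log2 CPM no lower than 3, stepwise genes, 6 on-line genes, up to 3 called members of a list, and a few standard markers. Genes named beyond it, among them Serpinb6b, Cd28, Lck, Apcdd1, Gm26759, Dhcr7, Tk1, Mcm6, mt-Atp6, Slpi and uncalled list members, were chosen after their values were seen. The members, the 34 gene lists and the contrast were chosen with earlier results of these data known. A few called genes are not reported here. Alternatives were limma-voom (limma 3.58.1), DESeq2 1.42.0, its size factors within edgeR, library totals alone, no filter, 5 CPM in 4 libraries, a replicate block, a linear scale and each library left out in turn.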

Additional observations from a re-analysis of the deposited data

Results flagged for a closer look

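The called genes, some list positions and some library measures were screened in 129 groups of 4 libraries. In 6 of them 1 library stood so far from the other 3 that the gap exceeded 0.829 of the group's range. That is the critical value for 4 samples. Chance gives about 1 in 20 such groups.

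Within UPSMALL, replicate 4 was high for Tgfbi, at 667 CPM against 453 to 484 in the other 3 libraries, and for Apcdd1, at 8.04 CPM against 3.50 to 4.20. Within UPBIG, replicate 4 was high for Gngt2, at 2182 CPM against 1676 to 1759. UPBIG replicate 1 was high for Pmvk, at 42.8 CPM against 30.7 to 31.0, for Dok2, at 11.3 CPM against 8.55 to 8.80, and for Apcdd1, at 0.810 CPM against 0.117 to 0.205. Without UPSMALL replicate 4 the midpoint contrast of Tgfbi was 0.53 and still called. Without UPBIG replicate 1, Pmvk and Dok2 also kept their calls.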

How the results depend on the processing

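With DESeq2-style size factors no count below moved by over 1.5 times. The counts that moved further are given here against 20 genes above and 11 below the midpoint, 0 peaks, 1 dip, 4 UPBIG-end, 22 DOWN-end and 2 stepwise genes, 10 sterol and 2 T and NK members; the causes were not tested. With library totals alone, which raise the median contrast of all genes from 0.01 to 0.13, there were 54 above, 3 peaks, 48 at the DOWN end and 17 sterol members. DESeq2 gave 60 above, 69 below, 2 peaks, 5 dips, 14 at the UPBIG end, 87 at the DOWN end, 8 stepwise, 17 sterol and 5 T and NK members. limma-voom gave 36 above, 3 peaks, 0 dips, 2 at the UPBIG end, 39 at the DOWN end, 4 stepwise, 17 sterol and 0 T and NK members. With no low-count filter there were 169 above, 72 below, 24 peaks, 9 dips, 12 at the UPBIG end, 108 at the DOWN end, 15 stepwise, 21 sterol and 6 T and NK members. Under the 5 CPM filter there were 33 above and 36 at the DOWN end. The linear scale gave 9 above, 40 below, 0 dips, 1 at the UPBIG end, 44 at the DOWN end, 0 stepwise, 5 sterol members and 1 T and NK member. Of all calls, 64.5% were above the midpoint, 81.8% with library totals alone, 46.5% with DESeq2 and 18.4% on the linear scale.

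The replicate block gave 64 above, 39 below, 4 peaks, 2 dips, 7 at the UPBIG end, 70 at the DOWN end, 8 stepwise and 18 sterol members, and kept all 31 calls. The labels tie the numbers to no shared animal or day. Same-numbered libraries of different groups had correlations of -0.0285 to 0.154 in their deviations from the group means, 6 of 12 over 0.1. A cut at 0.1 cannot decide pairing, and the numbers were not taken as pairs because no label names one. In 9 of 12 comparisons, from either side, a library correlated best with its own number, which is a hint of pairing from the data and not from the design.

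Over the fits that left out 1 library, genes above ranged from 13 to 37 and genes below from 7 to 23, both highest without DOWN replicate 4. Peaks ranged from 0 to 3, dips from 0 to 2, UPBIG-end genes from 1 to 8, DOWN-end genes from 18 to 37, stepwise genes from 1 to 3, sterol members from 8 to 15 and T and NK members from 0 to 3. The sterol list's median position ranged from 0.0169 to 0.0850. Of the 31 genes, 18 were called in all 12 of these fits, and 9 in these and every other setting.

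Some genes that were not called changed sign. Pparg went to 0.0025 and Mgll to 0.035 with library totals alone. On the linear scale, in units of a gene's mean CPM, Tmem176a was -0.33, Colec12 -0.25, Siglecf -0.053, Ccr2 -0.38, H2-Eb1 -0.23 and Ear1 -0.16, and Mgll, not called on the log scale, was called at -0.53. With 1 library left out, Tmem176a ranged from -0.024 (without UPBIG replicate 2) to 0.22, Trem2 from -0.044 to 0.094 (below 0 without UPSMALL replicate 1 or 2), Mgll from -0.17 to 0.046 (above 0 without UPSMALL replicate 4) and Siglecf from -0.081 (without UPSMALL replicate 3) to 0.14. The T cell genes and Serpinb6b lie near or under 1 CPM in UPSMALL, where few counts limit the precision.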
